A study of Rattus norvegicus with 57 samples.

Results

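The 5 rat liver genes described here, Ugt2b, RT1-T24-4, RGD1309362, Ubd and RT1-Bb, were selected on their signals in these arrays, which fell into a high and a low level among animals of the same group. They are 5 of 10725 genes tested, each read on the probe set (a group of probes to 1 transcript) of highest mean signal. RT1-Bb and Ugt2b each had a second probe set with that symbol alone, which makes 7 probe sets in all. The separation itself was used to choose the genes, so it is given as a description and carries no test.

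The animals were male Han Wistar [Crl:WI(Han)] rats, an outbred stock, which were 8 to 10 weeks old and housed singly. Methapyrilene, an antihistamine that damages the rat liver, was given by mouth every day at 30 or 80 mg/kg in carboxymethylcellulose, and controls received the vehicle. Livers were taken on day 4, 8 or 15, or on day 24, when 14 days of dosing had been followed by 10 days of recovery. Each of the 57 arrays held the liver RNA of 1 animal: 5 per dose and day, except 4 in the controls of day 24, in the 30 mg/kg group of day 24 and in the 80 mg/kg group of day 4. The values are MAS5 signals, a linear brightness with no fixed unit, and every array had the same trimmed mean of 99.992. The median of all values was 17.09, and signals below it may be background, so their order is uncertain. All 10 hepatocyte markers were measured in every array, with albumin (Alb) between 3031 and 8697.

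As background, Ugt2b (also called Ugt2b2) encodes a UDP-glucuronosyltransferase, an enzyme of the endoplasmic reticulum that attaches glucuronic acid to steroids such as androsterone so that they can be excreted. Wistar rats that glucuronidate androsterone poorly and lack such an enzyme are known from earlier work, but whether these animals carry such a deletion was not tested. RT1 is the rat major histocompatibility complex (MHC), whose genes differ strongly between haplotypes. RT1-Bb encodes the beta chain of the class II molecule RT1.B, which presents peptides to helper T cells, and RT1-T24-4 is a class I gene of the same complex. Ubd encodes ubiquitin D (FAT10), a ubiquitin-like protein induced by interferon gamma and tumour necrosis factor. RGD1309362 (also called Ifgga1) belongs to a family of interferon-inducible GTPases.

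Ubd, RT1-T24-4 and RT1-Bb lie on chromosome 20, with 181 annotated genes between Ubd and RT1-T24-4 and 180 between RT1-T24-4 and RT1-Bb. Ugt2b lies on chromosome 14 and RGD1309362 on chromosome 18. The 250 bases before the annotated start of 4 of the 5 genes are shown so that the start regions of genes with separate levels can be compared, 3 of them from 1 chromosome. The sequences are RefSeq's for assembly GRCr8, read 5′ to 3′ on the gene's strand, and belong to the reference genome, not to these animals. Capitals mark matches to CCAAT, the CCAAT box, or TATAAA, the TATA box, on either strand.
Ubd, chr20:1392686-1392935, minus strand: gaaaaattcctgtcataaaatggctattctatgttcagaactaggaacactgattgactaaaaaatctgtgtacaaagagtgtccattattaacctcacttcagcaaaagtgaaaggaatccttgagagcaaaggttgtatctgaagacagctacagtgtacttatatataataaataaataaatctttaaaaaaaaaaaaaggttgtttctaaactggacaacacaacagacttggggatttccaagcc
RT1-T24-4, chr20:2689083-2689332, plus strand: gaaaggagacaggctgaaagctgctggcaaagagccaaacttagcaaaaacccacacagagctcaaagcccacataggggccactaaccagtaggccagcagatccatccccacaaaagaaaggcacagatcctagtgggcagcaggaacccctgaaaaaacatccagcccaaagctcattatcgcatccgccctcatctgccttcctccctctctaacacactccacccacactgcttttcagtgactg
RT1-Bb, chr20:4604119-4604368, minus strand: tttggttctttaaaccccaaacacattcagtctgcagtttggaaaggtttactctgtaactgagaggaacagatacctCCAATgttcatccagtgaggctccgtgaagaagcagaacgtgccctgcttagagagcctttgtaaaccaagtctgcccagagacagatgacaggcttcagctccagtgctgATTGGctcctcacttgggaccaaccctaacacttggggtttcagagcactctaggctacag
Ugt2b, chr14:20985199-20985448, plus strand: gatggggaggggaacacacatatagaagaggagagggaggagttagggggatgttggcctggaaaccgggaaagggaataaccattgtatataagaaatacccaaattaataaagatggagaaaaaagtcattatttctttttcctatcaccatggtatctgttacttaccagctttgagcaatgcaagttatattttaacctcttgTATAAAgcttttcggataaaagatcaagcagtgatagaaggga
RT1-Bb held CCAAT 172 to 168 bases before the start, and again 61 to 57 bases before it on the opposite strand. Ugt2b held TATAAA 43 to 38 bases before the start. Among 33469 RefSeq promoters of this length, 34.0% held CCAAT, 12.9% held TATAAA and 7.67% held TTCNNNGAA, the interferon gamma activated site, which was in none of these 4 windows. The windows of Ubd and RT1-T24-4 held none of the 3 motifs. No matches overlapped, and a match in such a window describes its letters only.

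Each gene's levels were separated at the widest gap between neighbouring arrays, in log2 signal, that left at least 4 arrays on either side. Ugt2b had the widest gap, from 23.8 to 319 (3.75 log2), with 15 animals below and 42 above. RT1-T24-4 had its gap between 10.2 and 72.8 (2.84 log2), with 15 animals below and 42 above. These signals span from below the median of all values to well above it.
RGD1309362 was split between 5.98 and 41.2 (2.78 log2), with 22 animals below and 35 above. Ubd was split between 20.1 and 130.5 (2.70 log2), with 20 animals below and 37 above. RT1-Bb was split between 13.5 and 80.4 (2.57 log2), with 12 animals below and 45 above. The animals in the low state lay below 17.09 in 12 of 15 cases for Ugt2b, in 18 of 20 for Ubd and in every case for the other 3 genes.

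The gaps of the 5 genes were the 5 widest among the 10725 genes tested, which follows from their choice. The median gap was 0.10 log2, 37 genes had a gap of 1 log2 or more, and 6 had one of 2 or more. The sixth was Kif18a, a mitotic motor, whose 4 low arrays and the next array, at 2.52, all lay far below the median of all values. Within the 12 groups of dose and day, the standard deviation of log2 signal was 3.89 for Ugt2b, 3.59 for RGD1309362, 3.28 for RT1-T24-4, 2.97 for Ubd and 1.79 for RT1-Bb, against a median of 0.21 over all genes. RT1-Bb ranked 12 of 10725 by that measure and the other 4 genes held the first 4 ranks.

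**Figure D1:**
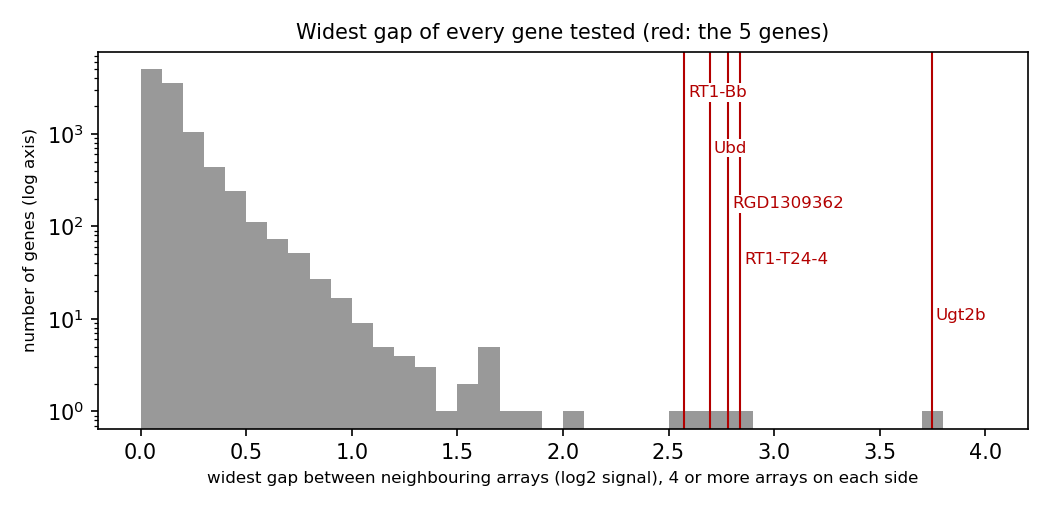
Number of genes (log axis) by the widest gap between neighbouring arrays in log2 signal, with at least 4 arrays on either side, over 10725 genes. Red lines mark the 5 genes, whose gaps of 2.57 to 3.75 lie to the right of all others, the next being 2.07.

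Ugt2b, the steroid-conjugating enzyme, was either near the brightest liver transcripts or near the floor. On day 4 its signal was 9.48, 4103, 4902, 4760.4 and 5037 in controls, 15.9, 5412, 5528, 5775 and 5473 at 30 mg/kg, and 4.68, 11.5, 5067 and 4520.2 at 80 mg/kg. On day 8 it was 4739, 4444, 5382, 12.5 and 4860.1 in controls, 12.5, 9.81, 5391, 4577 and 4597 at 30 mg/kg, and 18.4, 3920.5, 10.9, 3718 and 13.2 at 80 mg/kg. Low animals thus occurred at every dose on both days, and the groups overlapped. On day 15 it was 4855, 319, 23.8, 6002 and 5423 in controls, 3.67, 8.14, 1.31, 5508 and 5587 at 30 mg/kg, and 3743, 4082, 4625, 3855 and 5489 at 80 mg/kg. On day 24 it was 4814, 345, 21.6 and 4858 in controls, 4173, 4832, 5190.1 and 4992 at 30 mg/kg, and 3147, 3987, 417, 5080.4 and 4899.9 at 80 mg/kg. All 5 animals at 80 mg/kg on day 15 and all 4 at 30 mg/kg on day 24 were high. All 5 at 80 mg/kg on day 24 were above the gap as well, 1 of them at 417.

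In 3 animals Ugt2b lay between these levels, at 319 (control, day 15), 345 (control, day 24) and 417 (80 mg/kg, day 24), and a second gap of 2.92 log2 separated them from the next animal at 3147. On the second Ugt2b probe set these 3 animals were in the low state, at 10.9, 8.39 and 18.7. That probe set had a gap from 18.7 to 388 (4.37 log2), with 18 animals below and 39 above. The same 3 animals were the highest of those 18, the other 15 being at 5.32 or lower. The 2 probe sets of Ugt2b gave the same state in 54 of 57 animals, 39 high on both and 15 low on both.

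**Figure D2:**
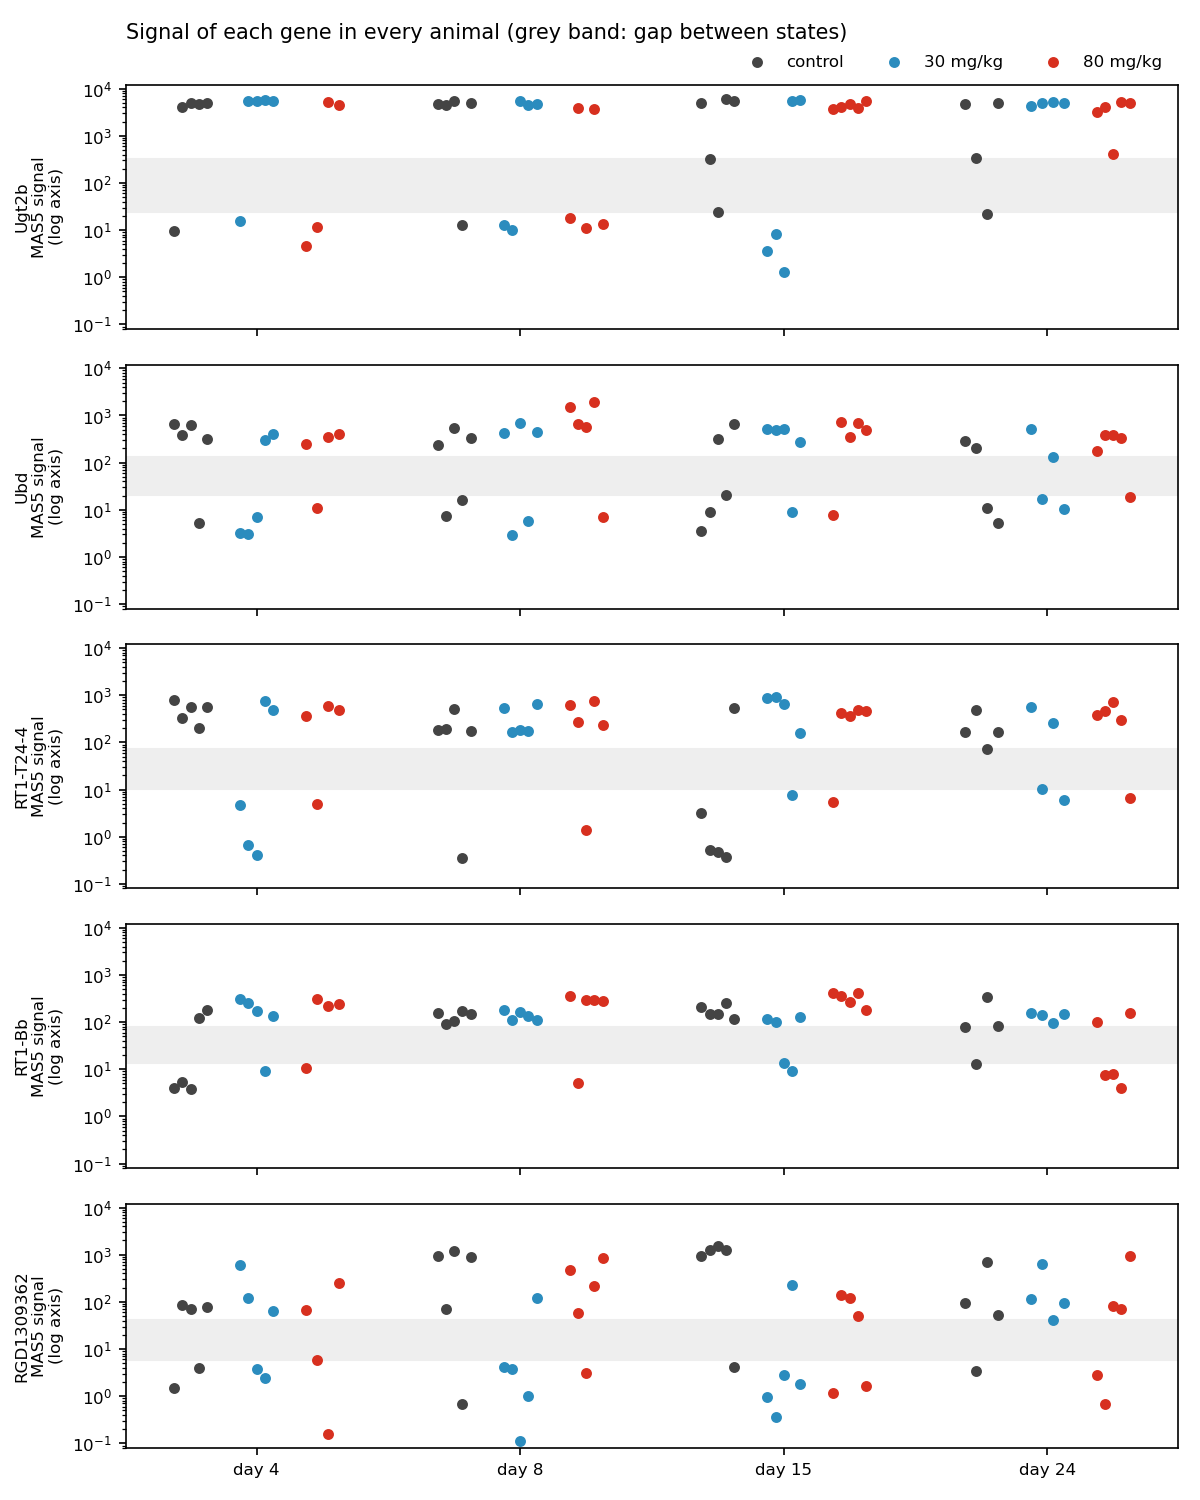
MAS5 signal (log axis) of each gene in all 57 animals, by day and dose, 1 point per animal, with the gap between states as a grey band. Each gene has animals above and below its band in controls and at both doses.

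RT1-T24-4, the class I gene, was read on a probe set whose name marks probes shared with other sequences, so related RT1 transcripts may add to its signal. On day 4 it was 775, 323, 576, 204 and 567 in controls, 4.75, 0.680, 0.400, 755 and 478 at 30 mg/kg, and 369, 4.99, 589 and 494 at 80 mg/kg. On day 8 it was 183, 190.2, 512, 0.350 and 173 in controls, 544, 169, 182, 172 and 636 at 30 mg/kg, and 608, 274, 1.42, 737 and 230.1 at 80 mg/kg. The groups of each of these days overlapped. On day 15 it was 3.17, 0.530, 0.480, 0.370 and 534 in controls, 879, 926, 659.5, 7.83 and 157 at 30 mg/kg, and 5.41, 418, 368, 492 and 454 at 80 mg/kg. On day 24 it was 169.9, 474, 72.8 and 166 in controls, 549, 10.2, 254 and 6.08 at 30 mg/kg, and 383, 473, 715, 298 and 6.46 at 80 mg/kg. The controls of day 15 stood apart from the other control groups, with 4 of 5 animals low against 1 of 5 on day 8 and none on days 4 and 24.

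Ubd, the interferon-induced ubiquitin-like modifier, had both states in all 12 groups. On day 4 it was 662, 378, 620.5, 5.32 and 313 in controls, 3.30, 3.05, 7.18, 299.7 and 412 at 30 mg/kg, and 248, 11.1, 342 and 398 at 80 mg/kg. On day 8 it was 235, 7.32, 556, 16.1 and 337 in controls, 417, 2.90, 676, 5.76 and 456 at 30 mg/kg, and 1481, 661, 583, 1928 and 6.97 at 80 mg/kg. The 4 high animals at 80 mg/kg on day 8 lay above all other animals of that day except 1 at 30 mg/kg with 676, and 2 of them, at 1481 and 1928, were the highest of the 57. On day 15 it was 3.59, 9.18, 310.1, 20.1 and 650.0 in controls, 505, 480.1, 521, 9.14 and 271 at 30 mg/kg, and 7.65, 734, 355, 709 and 500.0 at 80 mg/kg. On day 24 it was 284, 208, 11.1 and 5.38 in controls, 522, 17.1, 130.5 and 10.2 at 30 mg/kg, and 176, 382, 378, 341 and 18.4 at 80 mg/kg. The groups of these days overlapped as well.

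RT1-Bb, the class II beta chain, was high in most animals. On day 4 it was 4.09, 5.27, 3.77, 125 and 177 in controls, 313, 255, 175, 8.99 and 136 at 30 mg/kg, and 10.5, 315, 221 and 247 at 80 mg/kg. On day 8 it was 154, 92.8, 106, 168 and 147 in controls, 182, 112, 161, 133 and 108 at 30 mg/kg, and 349, 5.16, 292, 293 and 284 at 80 mg/kg. On day 8 the only low animal of 15 was at 80 mg/kg. On day 15 it was 212, 148, 148, 254 and 117 in controls, 115, 99.2, 13.5, 9.13 and 129 at 30 mg/kg, and 405, 354, 265, 405 and 178 at 80 mg/kg. On day 24 it was 80.4, 12.8, 347 and 82.3 in controls, 158, 142, 97.2 and 146 at 30 mg/kg, and 102, 7.65, 7.96, 3.98 and 159 at 80 mg/kg. Low animals were thus most frequent in the controls of day 4 and at 80 mg/kg on day 24, with 3 of 5 in each.

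The second RT1-Bb probe set split the animals in another way. Its gap lay between 8.40 and 56.8 (2.76 log2), with 13 animals below and 44 above. In the day 15 controls it was 2.37, 93.8, 1.78, 2.67 and 84.5, where the first probe set was high in all 5. In the day 4 controls it was 242, 238, 109, 108 and 132, where the first probe set was low in 3 of 5. Of the 57 animals, 32 were high on both probe sets, 13 were high on the first alone, 12 on the second alone, and none was low on both. Every animal therefore had a high signal on at least 1 probe set annotated to RT1-Bb. The deviations of both probe sets from their group means had a Pearson r of -0.422 over 57 arrays, given as a description, whereas those of the Ugt2b probe sets had 0.966.

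**Figure D3:**
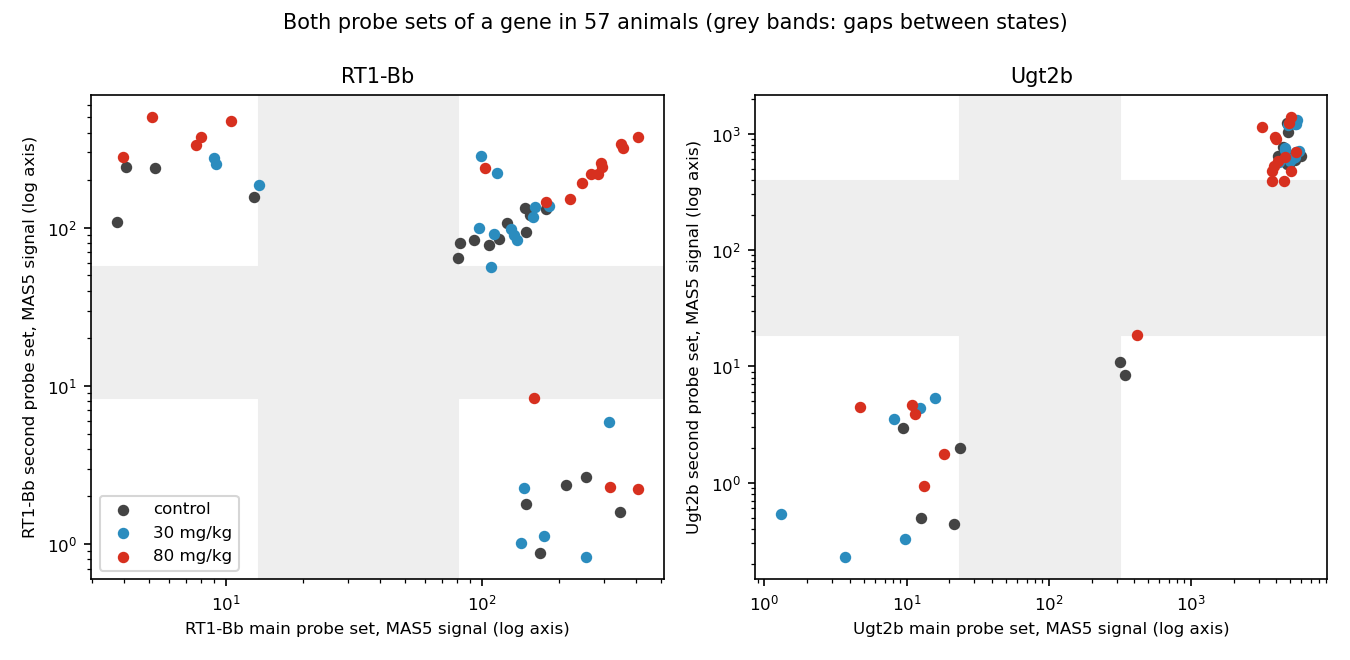
MAS5 signals of the first against the second probe set of RT1-Bb (left) and Ugt2b (right) in 57 animals, on log axes, with the gaps between states as grey bands. For RT1-Bb 13 animals lie at lower right, 12 at upper left and none at lower left, whereas for Ugt2b 54 of 57 lie at lower left or upper right.

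RGD1309362, the interferon-inducible GTPase, had the widest range of high signals in fold, from 41.2 to 1501. On day 4 it was 1.47, 84.8, 70.3, 3.93 and 77.8 in controls, 595, 123, 3.72, 2.48 and 65.5 at 30 mg/kg, and 68.5, 5.98, 0.160 and 252 at 80 mg/kg. On day 8 it was 916, 71.9, 1185, 0.680 and 896 in controls, 4.11, 3.77, 0.110, 0.990 and 122 at 30 mg/kg, and 480.1, 58.3, 3.16, 221 and 848 at 80 mg/kg. On that day 4 of 5 animals were high in controls and 1 of 5 at 30 mg/kg. On day 15 it was 927, 1253, 1501, 1277 and 4.11 in controls, 0.980, 0.370, 2.79, 228 and 1.84 at 30 mg/kg, and 1.18, 139, 120.4, 50.4 and 1.62 at 80 mg/kg. On day 24 it was 93.0, 3.49, 702 and 52.8 in controls, 117, 629.6, 41.2 and 93.6 at 30 mg/kg, and 2.83, 0.670, 80.9, 69.4 and 928 at 80 mg/kg. Within the high state a second, narrower gap of 0.93 log2 lay between 252 and 480.1, with 13 animals above it, of which 8 were controls, 2 were at 30 mg/kg and 3 at 80 mg/kg.

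The high state occurred at every dose for each gene. Of 19 animals per dose (controls, 30 mg/kg and 80 mg/kg in this order), Ugt2b was high in 15, 13 and 14, RT1-T24-4 in 14, 13 and 15, and RT1-Bb in 15, 16 and 14. Ubd was high in 11, 11 and 15, and RGD1309362 in 14, 9 and 12. The second Ugt2b probe set was high in 13, 13 and 13, and the second RT1-Bb probe set in 14, 14 and 16. In no group of dose and day were all animals low for any of the 7 probe sets. Groups with both states numbered 12 of 12 for Ubd, 11 for RGD1309362, 9 each for Ugt2b and RT1-T24-4, and 7 for RT1-Bb.

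Each dose was compared with the controls of the same day, and over the mean of the 4 days, by limma on log2 signals with Benjamini-Hochberg adjustment over the 10725 genes. Both doses share those controls. The mean of the days includes day 24, after recovery, with the same weight as each other day. In bulk liver RNA, fewer cells of a type and less RNA per cell cannot be told apart. At 80 mg/kg none of the 5 genes was called (adjusted p under 0.05) on day 4, when 27.5% of all genes were, on day 8, when 50.8% were, or on day 24, when 10.2% were. On day 15, when 59.2% of genes were called, 1 of the 5 was, RT1-T24-4. At 30 mg/kg none was called on day 4 (0.783% of all genes), day 8 (0.233%) or day 24 (0.0932%), and on day 15 (4.6%) it was again RT1-T24-4 alone. Over the mean of the days none of the 5 was called at either dose, against 65.6% of all genes at 80 mg/kg and 7.43% at 30 mg/kg. At an unadjusted limma p under 0.05 the count of the 5 genes was 1, 0, 2 and 0 on days 4, 8, 15 and 24 at 80 mg/kg, and 2, 1, 2 and 0 at 30 mg/kg. Over the mean of the days it was 0 at 80 mg/kg and 1 at 30 mg/kg, RGD1309362.

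These misses leave wide intervals, because animals of 1 group differed by several log2 units. The 5 genes were chosen for such differences, and a wide spread within groups makes a call less likely. Their few calls beside the shares of all genes therefore follow in part from the choice, and do not measure independence of dose. Over the mean of the days the log2 difference of Ugt2b was -0.56 at 80 mg/kg (95% interval -2.98 to 1.86, limma adjusted p = 0.694) and -0.64 at 30 mg/kg (-3.06 to 1.78, adjusted p = 0.812). That of RT1-Bb was 0.45 (-0.67 to 1.56, adjusted p = 0.488) and 0.41 (-0.70 to 1.53, adjusted p = 0.724 at 30 mg/kg). That of Ubd was 1.53 (-0.31 to 3.37, adjusted p = 0.140) and -0.14 (-1.98 to 1.71, adjusted p = 0.956). The intervals of Ugt2b hold falls and rises of more than 1 log2 unit, whereas those of RT1-Bb do not reach down to -1. For RT1-T24-4 the values were 1.41 (-0.63 to 3.45, adjusted p = 0.221) and 0.45 (-1.59 to 2.49, adjusted p = 0.846). For RGD1309362 they were -1.70 (-3.93 to 0.54, adjusted p = 0.177) and -2.62 (-4.85 to -0.38, adjusted p = 0.147). Over 13 other settings and 38 fits that each left out 1 animal, these values moved within the intervals. At 80 mg/kg Ugt2b ranged from -1.01 (without control day 4 replicate 1) to -0.12 (without 80 mg/kg day 4 replicate 2), RT1-Bb from 0.24 (without control day 24 replicate 3) to 1.14 (mean of both probe sets; 0.92 with the 3′ to 5′ beta-actin ratio, a measure of RNA integrity, as a covariate), RT1-T24-4 from 0.92 (offset before log2) to 1.88, Ubd from 0.97 (actin ratio) to 1.89 and RGD1309362 from -2.18 to -1.19. At 30 mg/kg Ugt2b ranged from -1.29 (array weights) to -0.21 (without 30 mg/kg day 4 replicate 1), RT1-Bb from 0.20 to 0.66, and RGD1309362 from -3.10 to -2.03, while Ubd (-0.46 to 0.25) and RT1-T24-4 (-0.017 to 0.93) reached both sides of 0.

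**Figure D4:**
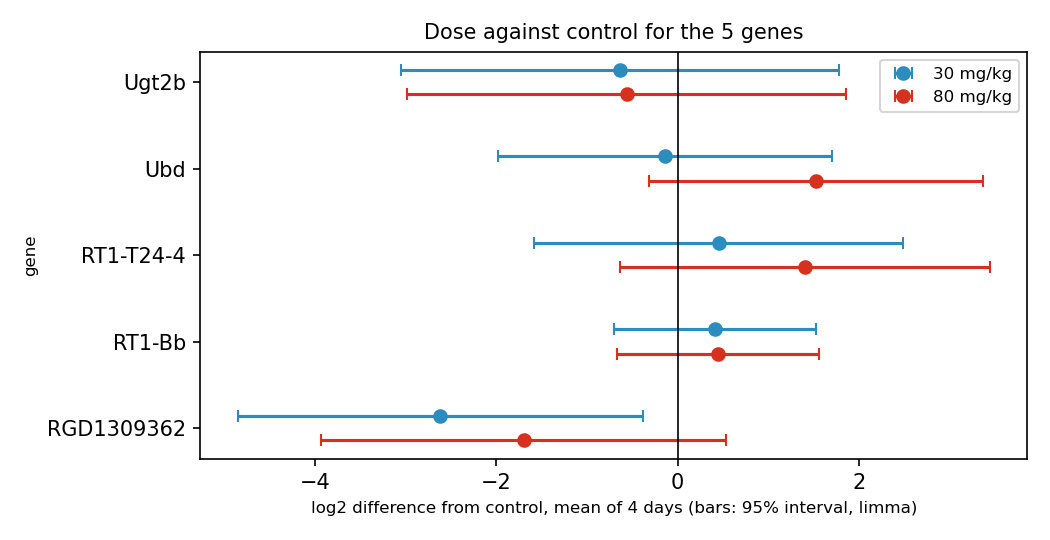
Log2 difference from control of the 5 genes over the mean of 4 days, at 30 and 80 mg/kg, with the 95% interval of the limma fit (19 animals per dose). Of the 10 intervals 9 include 0, and that of RGD1309362 at 30 mg/kg, from -4.85 to -0.38, does not.

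RT1-T24-4 on day 15 was 6.02 ± 1.97 (SE) log2 units higher at 80 mg/kg than in controls (95% interval 2.07 to 9.98, limma adjusted p = 0.0075) and 6.39 ± 1.97 higher at 30 mg/kg (2.43 to 10.35, adjusted p = 0.0473). The sizes rest on signals below 17.09: with 3.31, the 20th percentile of all values, added to each signal they were 4.13 (adjusted p = 0.0206) and 4.46 (adjusted p = 0.0877). Both differences rest on the same 5 controls, of which 4 were in the low state, whereas 4 of 5 animals were high at either dose. The groups overlapped, and the exact two-sided permutation p was 0.0476 at 80 mg/kg and 0.0317 at 30 mg/kg, which became 0.381 and 0.318 after Benjamini-Hochberg adjustment over the 40 daily tests of the 5 genes. The smallest p that 5 against 5 animals can give is 0.00794. Leaving out 1 animal of either group in turn ended the call at 30 mg/kg in 8 of 10 fits, with adjusted p up to 0.123; it held without control replicate 5 (adjusted p = 0.00739) and without 30 mg/kg replicate 4 (adjusted p = 0.0177). At 80 mg/kg it held in all 10 fits, with adjusted p up to 0.0275. Of 13 other settings of the processing, 10 ended the call at 30 mg/kg, with adjusted p up to 0.0877, and none ended that at 80 mg/kg. The ratio of 3′ to 5′ beta-actin signal was 5.02 to 6.37 in the day 15 controls, 4.29 to 5.52 at 30 mg/kg and 3.77 to 4.93 at 80 mg/kg. With that ratio as a covariate the differences were 5.13 (adjusted p = 0.0385) at 80 mg/kg and 5.93 (adjusted p = 0.0807) at 30 mg/kg. On day 4 RT1-T24-4 at 30 mg/kg differed the other way, by -5.02 (95% interval -8.98 to -1.06, limma adjusted p = 0.225). There 2 of 5 animals were high against 5 of 5 controls, and the exact permutation p was 0.119.

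For RGD1309362 on day 15 the log2 difference from controls was -4.49 ± 2.16 (SE) at 80 mg/kg and -6.87 ± 2.16 at 30 mg/kg, and neither passed the limma threshold (adjusted p = 0.0696 and 0.0520). These sizes too rest on signals below 17.09, and with the offset of 3.31 the difference at 30 mg/kg was -5.42 (adjusted p = 0.0426). Of 13 other settings, 4 brought the difference at 30 mg/kg under the threshold, with adjusted p down to 0.00778. At 30 mg/kg 4 of 5 animals were in the low state against 1 of 5 controls, and the exact permutation p was 0.0159, or 0.318 after adjustment over the 40 daily tests.

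For RT1-Bb the result over the mean of the days depended on the probe set. In a fit of all 18677 probe sets above the signal filter, the second probe set was 1.83 ± 0.79 log2 units higher at 80 mg/kg (95% interval 0.25 to 3.41, limma adjusted p = 0.0425), where 58.3% of probe sets were called. The first probe set had 0.45 ± 0.55 (adjusted p = 0.506) in that fit. At 30 mg/kg, where 6.23% of probe sets were called, the second probe set differed by 0.09 ± 0.79 (adjusted p = 0.968). With the mean of both probe sets for the gene, RT1-Bb was 1.14 ± 0.38 higher at 80 mg/kg (adjusted p = 0.00738). The second probe set of Ugt2b was not called at either dose, with 0.25 ± 1.25 at 80 mg/kg (adjusted p = 0.881).

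Other genes of the same pathways are given for the mean of the days, where 65.6% of all genes were called at 80 mg/kg and 7.43% at 30 mg/kg. Of the 9 measured genes of class II presentation, 8 rose at 80 mg/kg (7 after quantile normalization or a common median) and RT1-Bb did not pass the test; the median log2 difference of the list was 0.61 against 0.12 over all genes (0.51 against 0.03 and 0.42 against -0.06 under those scalings). RT1-Ba, the alpha chain that pairs with RT1-Bb, rose by 1.42 (limma adjusted p = 3.34e-06), RT1-Da by 1.03 (adjusted p = 3.64e-08) and Cd74, the invariant chain, by 0.91 (adjusted p = 4.91e-09). By day the list median at 80 mg/kg was 0.40 on day 4, 0.99 on day 8, 0.91 on day 15 and 0.60 on day 24, after recovery. Over the mean of the days none of the 9 was called at 30 mg/kg. At 80 mg/kg 10 of 11 measured macrophage and Kupffer cell markers were called higher and 1 lower. These counts were 9 and 1 after quantile normalization and 7 and 1 with a common median. The summed signals of these markers were 4431 to 6329 against 3016 to 5953 in controls. Of 4 dendritic cell markers 3 were called higher (2 under either other scaling), with sums of 74.8 to 135 against 51.4 to 96.0. In that list Clec9a, Itgax and Batf3 had geometric mean signals of 9.268, 8.515 and 7.66, all below 17.09. All 6 biliary and progenitor markers were called higher, with sums of 249 to 1474 against 94.2 to 294, and 5 of 8 T and NK cell markers (1 under either other scaling), with sums of 188 to 308 against 144 to 259. Of 10 hepatocyte markers 1 was called higher and 7 lower (4 and 3 after quantile normalization, 0 and 9 with a common median), with sums of 32880 to 59900 against 45680 to 69140. Of 5 endothelial markers 2 were called higher and 1 lower (2 and 0 after quantile normalization, 0 and 2 with a common median), with sums of 1301 to 1858 against 1142 to 1994. Of 4 B and plasma cell markers 1 was called higher and 0 lower (1 and 1 under either other scaling), with sums of 107 to 219 against 81.6 to 222. At 30 mg/kg 3 of the 11 macrophage markers were called higher and none of the 4 dendritic cell markers was called. The part of these cells in the class II result and in the results below was not tested.
Of the 9 measured genes of glucuronidation, 2 rose and 3 fell at 80 mg/kg (3 and 0 after quantile normalization, 2 and 4 with a common median), with a list median of -0.14, so that 5 of 9 were called beside 65.6% of all genes. Ugt2b7 rose by 2.22 (adjusted p = 3.48e-09) at a geometric mean signal of 9.60, and Ugt2b1 rose by 0.57 (adjusted p = 3.99e-06) and by 0.38 at 30 mg/kg (adjusted p = 0.0151). Ugt2b itself was not called at either dose. Of 18 measured class I presentation genes 7 rose and 2 fell at 80 mg/kg (5 and 2 after quantile normalization, 4 and 5 with a common median). Of 11 measured interferon gamma induced genes 2 rose and 2 fell (2 and 4 under either other scaling). The class I list holds RT1-T24-4 and the interferon gamma list holds Ubd and RGD1309362, none of which was called. Among 17 type I interferon induced genes 8 rose and 4 fell (4 and 3, and 4 and 5). In that list 10 rose and none fell on day 8 at 80 mg/kg, with a median of 0.88, whereas 3 rose and 6 fell on day 15, with a median of -0.38; 50.8% and 59.2% of all genes were called on those days.

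Ubd, RT1-T24-4 and the second RT1-Bb probe set, all on chromosome 20, were mostly in the same state in an animal. RT1-T24-4 and Ubd were in the same state in 48 of 57 animals, 35 high and 13 low in both, with 7 high for RT1-T24-4 alone and 2 for Ubd alone. RT1-T24-4 and the second RT1-Bb probe set were in the same state in 53 animals, 41 high and 12 low in both. In the 19 controls alone these counts were 14 and 17. The first RT1-Bb probe set did not share this pattern. It was in the same state as RT1-T24-4 in 32 animals, 31 high and 1 low in both. In 14 animals this RT1-Bb probe set alone was high, and in 11 RT1-T24-4 alone. Ugt2b (high in 42 of 57) and RGD1309362 (high in 35) were in the same state in 38 animals, 29 high and 9 low in both. Since most animals were high for each gene, unrelated states also agree in many animals, and these counts carry no test.

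As a description over 57 arrays, deviations from group means gave a Pearson r of 0.638 for RT1-T24-4 with Ubd, 0.772 for RT1-T24-4 with the second RT1-Bb probe set and 0.570 for Ubd with that probe set. The first RT1-Bb probe set had -0.269 with RT1-T24-4 and -0.286 with Ubd. RGD1309362 with Ugt2b had 0.0856. These values share the arrays and their scaling.

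Of the 16 possible combinations of states of the 4 chromosome 20 probe sets, 9 were seen. All 4 were high in 24 animals, at least 1 in each of the 12 groups. In 11 animals the first RT1-Bb probe set alone was low, and in 11 others it alone was high. In 6 animals Ubd alone was low, and the remaining 5 combinations were seen in 1 animal each. The 3 most frequent combinations held 6, 4 and 3 controls, 9, 2 and 5 animals at 30 mg/kg, and 9, 5 and 3 at 80 mg/kg, so each occurred at every dose. Over the 5 genes, 19 of 32 possible combinations were seen, and all 5 were high in 14 animals.

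The genes whose deviations were most like those of the 5 genes were named by Pearson r over the 57 arrays, as a description. The first RT1-Bb probe set was most like Slc39a7, a zinc transporter gene of the MHC region (0.899), and RT1-CE10, a class I gene (0.850), followed by AA926063 (0.830), Tap2, part of the peptide transporter (0.688), and RT1-CE16 (0.639). The second was most like RT1-A, the classical class I gene (0.924), then RT1-T24-4 (0.772) and RT1-Ba (0.767), and least like Slc39a7 (-0.594), the gene most like the first. RT1-T24-4 was most like RT1-A (0.865) and RT1-N2 (0.701), and least like RT1-CE16 (-0.680). Ubd was most like Clic2, a chloride channel family gene (0.742), and RT1-N2 (0.713), and least like Gabbr1, a GABA receptor subunit (-0.558). These include measured neighbours in the gene order, at unlike distances. Gabbr1 lay 7 annotated genes from Ubd, RT1-N2 7 from RT1-T24-4 and Tap2 2 from RT1-Bb. Clic2 lay 97 annotated genes from Ubd and counts as a neighbour only because few genes between them were measured. Genes with r over 0.5 lay on chromosome 20 in 8 of 9 cases for the first RT1-Bb probe set, 10 of 21 for the second, 5 of 12 for RT1-T24-4 and 3 of 12 for Ubd, where 2.95% of all genes tested lie. RT1-A had no chromosome in the gene table and is not counted there. Likeness to cell markers was also seen. With the 11 macrophage and Kupffer cell markers, the median r of the second RT1-Bb probe set was 0.412, and with 5 endothelial markers 0.402. Over all genes its median was 0.0297. RT1-T24-4 had 0.274 and 0.386 (0.0167 over all genes) and Ubd 0.156 and 0.204 (0.0238). The first RT1-Bb probe set had -0.0441 and -0.00434 (-0.00476). With the 6 biliary and progenitor markers its median was -0.0119, and 1 of them, Epcam, exceeded 0.5, at 0.611. The part of these cells in the shared pattern was not tested.

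RT1-A, the gene most like 2 of these probe sets, ranged from 21.9 to 335 with a median of 157, and Slc39a7 from 188 to 583. Slc39a7 was thus above 17.09 in every animal. RT1-N2 ranged from 1.22 to 143.

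Ugt2b was most like Adpgk, an ADP-dependent glucokinase (0.533), its neighbour Ugt2b7 (0.533), Skap2, an adaptor protein gene on chromosome 4 (0.530), and its neighbour Ugt2b1 (0.528), and least like its neighbour Ugt2b15 (-0.571). Of the 4 genes with r over 0.5, 2 lay on chromosome 14, which holds 3.32% of the genes tested. Ugt2b15 ranged from 1469.8 to 3369 and Ugt2b1 from 886 to 3132, so both were well above 17.09 in every animal, including those in which Ugt2b was low. Probes of related Ugt2b genes may share sequence, which these files cannot resolve. RGD1309362 was most like Arid4a, a chromatin protein gene (0.633), and Champ1 (0.609), which lie on other chromosomes, and least like Isoc1 (-0.497), a measured neighbour on chromosome 18. Of its 13 genes with r over 0.5, 1 lay on chromosome 18, which holds 2.35% of the genes tested. Its nearest measured neighbour of the same family, Ifgga2l1, had -0.0252.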

How the data were processed

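RNA from rat liver was measured on Rat Genome 230 2.0 arrays, 1 array per animal. The deposited values are MAS5 signals, which the authors give as an intensity on a linear scale; MAS5 is named in the submitters' processing notes without a version. The number of arrays, not a read depth, limits the precision, and scans were not reprocessed. MAS5 summarises each array alone and gives no detection call here, so a low signal may be background.

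Signals were log2 transformed without an offset. Of 31099 probe sets, 20832 had 1 gene symbol; a probe set needed at least 4 arrays over 17.09, the overall median signal, control probe sets were left out, and the probe set of highest mean stood for its gene, which gave 10725 genes. All 5 genes matched the RefSeq gene table of assembly GRCr8 by Entrez ID, and 4 had a promoter sequence. All 5 passed the filter, with 35 to 45 of 57 arrays over that value.

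Limma 3.58.1 in R 4.3.3 fitted the means of 12 groups of dose and day, with eBayes and a variance trend, and called an adjusted p under 0.05. Exact permutation tests were two-sided. The fit was tested on simulated data with a normal spread around each gene's mean. Those data had no separate high and low levels, so they do not test the p-values and intervals of the 5 genes. Likeness was the Pearson correlation of log2 deviations from group means; the 5 highest genes and the lowest were eligible to be named, with up to 3 called genes per list and the 5 measured neighbours on either side. The members, lists and rules were chosen with earlier results of these data known. Alternatives changed the scaling, the filter, the offset, the probe sets, the variance model, the array weights, the replicate number, the actin ratio and the animals left out. Arrays were taken as independent animals, as the labels call them biological replicates. Python 3.11.15, numpy 2.4.6, pandas 2.3.3 and matplotlib 3.10.9 were used for the descriptions and plots.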

Additional observations from a re-analysis of the deposited data

Results flagged for a closer look

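In 19 of the 60 combinations of 5 genes and 12 groups, the lowest animal lay far below the rest of its group by Dixon's test on log2 signal. Chance flags about 1 in 20 groups, and these genes were selected on such separations, so the count is a description. In 18 of them the animal was in the low state.

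For Ugt2b the animals had signals of 9.48 (control, day 4), 12.5 (control, day 8), 15.9 (30 mg/kg, day 4) and 417 (80 mg/kg, day 24), the last being 1 of the 3 animals between the levels. For RT1-T24-4 they had 0.35 (control, day 8) and, at 80 mg/kg, 4.99, 1.42, 5.41 and 6.46 on days 4, 8, 15 and 24. For Ubd they had 5.32 (control, day 4), 9.14 (30 mg/kg, day 15) and, at 80 mg/kg, 11.1, 6.97, 7.65 and 18.4 on days 4, 8, 15 and 24. At 80 mg/kg the animals singled out for RT1-T24-4 and Ubd were the same on days 4, 15 and 24 and differed on day 8. For RT1-Bb they had 8.99 (30 mg/kg, day 4), 10.5 (80 mg/kg, day 4) and 5.16 (80 mg/kg, day 8). For RGD1309362 1 control of day 15 had 4.11, where the other 4 had 927 or more.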

How the results depend on the processing

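Of 169 recomputed log2 differences of the 5 genes, 153 kept their direction and side of the threshold, leave-one-out fits not included. Of 130 counts of genes called, 114 were unchanged, which does not mean that the same gene was called. The count at 30 mg/kg on day 15 was 1, and became 0 with quantile normalization, a common median, no filter, a gene's probe sets averaged, every probe set tested, no variance trend, robust variance or the actin ratio as a covariate, and 2 with the stricter filter or array weights. With an offset before log2 or in a fit of only the groups compared, the count at 30 mg/kg stayed 1, but the gene changed. RGD1309362 was then called (limma adjusted p = 0.0426 and 0.0453) and RT1-T24-4 was not (limma adjusted p = 0.0877 and 0.0664). The count at 80 mg/kg on day 15 was 1, and became 2 with an offset before log2 or the mean of probe sets, and 3 in a fit of only the groups compared. Over the mean of the days at 80 mg/kg it went from 0 to 1, RT1-Bb, with the mean of probe sets. On day 4 at 80 mg/kg it went from 0 to 1 with array weights and with the replicate number as a replicate block. Replicate numbers do not pair the animals: none of 36 correlations of same-numbered animals exceeded 0.1 (-0.0805 to 0.0647). Leaving out 1 animal gave counts of 0 to 2 at 30 mg/kg on day 15, 1 to 2 at 80 mg/kg on day 15 and 0 to 1 at 80 mg/kg on day 4. Over the mean of the days at 30 mg/kg, Ubd turned from -0.14 to 0.25 with array weights and ranged from -0.46 to 0.15 without 1 animal, and RT1-T24-4 ranged from -0.017 to 0.93. The cause of these changes was not tested, except that the filters and the fit of only the groups compared change how many genes or animals enter.

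Of 37 recomputed counts of high animals, 36 stayed within 1.5 times the first. That of RT1-Bb became 5 in place of 45 when deviations from group means were used, since the widest gap then lay elsewhere.

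Signals under the median of all values limit how far apart the low animals can be ordered, and the size of a log2 difference between states depends on them.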
